A study of Mus musculus with 6 samples.

Results

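The genes that encode the inhibitors of cyclin-dependent kinases (CDKs) were compared between haematopoietic stem cells sorted as CCR2-positive and as CCR2-negative. CCR2 is a chemokine receptor of the cell surface. The 8 genes were taken by symbol: Cdkn1a, Cdkn1b, Cdkn1c, Cdkn2a, Cdkn2b, Cdkn2c, Cdkn2d and Cdkn3. All 8 were measured, each by 1 probe set, among 22180 genes in all. The cells came from C57BL/6J mice, and 6 pools were profiled on whole-transcript arrays: 3 pools of CCR2-negative and 3 pools of CCR2-positive cells, each pool made from the marrow of 20 mice. No genetic change or treatment is given for either group. The sources used here do not give the age of the mice, the further markers used for sorting, or whether pools of opposite kind shared mice. Values are log2 signals from the deposited table. Differences are CCR2-positive minus CCR2-negative means, each with its standard error from limma.

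A CDK drives the cell cycle only when a cyclin is bound to it, and the inhibitors act on that pair. Proteins of the Cip/Kip family (p21 from Cdkn1a, p27 from Cdkn1b and p57 from Cdkn1c) bind the assembled complexes of cyclin and CDK. Those of the INK4 family (p16 from Cdkn2a, p15 from Cdkn2b, p18 from Cdkn2c and p19 from Cdkn2d) bind Cdk4 and Cdk6 and keep cyclin D away from them. Cdkn3 encodes a phosphatase that removes the activating phosphate from Cdk2. In stem cells of the marrow p57 and p27 are known for holding cells in quiescence, p18 for limiting self-renewal, and the Cdkn2a locus for being kept silent by Polycomb proteins.

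Cdkn1b was the single CDK inhibitor with a 95% interval that did not hold 0, and it was lower in the CCR2-positive pools, by 1.34-fold. Adjusted over all genes, it missed the threshold. Cdkn2a and its neighbour Cdkn2b had slightly higher values in every CCR2-positive pool than in any CCR2-negative pool. The other 5 had overlapping pools. In the limma fit 0 of 22180 genes passed an adjusted p of 0.05 (0%). An unadjusted p under 0.05 was reached by 2716 genes (12.2%), and 1 of the 8 CDK inhibitors was among them. The groups did not overlap for 18.6% of all genes and for 3 of the 8 CDK inhibitors. With 8 genes, neither count can be told from those shares, so neither is a result about the family.

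The stretches before the start sites of 3 of these genes are shown, because their pools did not overlap between the groups: Cdkn1b, which had the largest difference, and the neighbours Cdkn2a and Cdkn2b. Each stretch is the 250 bases before the outermost start of the gene in RefSeq (GRCm38.p6), read 5′ to 3′ on the strand of the gene. RefSeq start regions were at hand for 7 of the 8 genes. Capitals mark letters that match 1 of 7 motifs searched on both strands: CCAAT (the CCAAT box), GGGCGG (the GC box), TTTGAA (the CHR element of cell cycle genes), TTTCCCGC or TTTGGCGC (E2F), GTAAACA (a FoxO core), CACGTG (an E-box) and TATAAA (the TATA box).
Cdkn1b (p27), chr6:134920151-134920400, plus strand: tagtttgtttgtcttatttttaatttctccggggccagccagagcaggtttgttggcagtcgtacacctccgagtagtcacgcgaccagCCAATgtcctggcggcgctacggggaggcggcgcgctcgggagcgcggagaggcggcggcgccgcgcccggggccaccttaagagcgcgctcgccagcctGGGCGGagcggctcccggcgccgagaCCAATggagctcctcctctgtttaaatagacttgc
Cdkn2a (outermost of its starts), chr4:89294620-89294869, minus strand: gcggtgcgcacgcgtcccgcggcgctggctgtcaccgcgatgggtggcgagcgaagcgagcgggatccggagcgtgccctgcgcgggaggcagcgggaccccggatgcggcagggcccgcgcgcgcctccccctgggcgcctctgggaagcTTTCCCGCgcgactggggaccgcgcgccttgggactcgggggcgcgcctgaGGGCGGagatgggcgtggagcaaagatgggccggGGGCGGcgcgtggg
Cdkn2b (p15), chr4:89311033-89311282, minus strand: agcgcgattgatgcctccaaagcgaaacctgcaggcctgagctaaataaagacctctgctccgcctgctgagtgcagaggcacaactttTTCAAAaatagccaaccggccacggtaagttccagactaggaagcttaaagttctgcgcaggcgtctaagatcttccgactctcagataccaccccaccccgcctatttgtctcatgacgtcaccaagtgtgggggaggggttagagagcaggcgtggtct

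The Cdkn1b stretch holds 2 CCAAT boxes and 1 GC box. CCAAT is found in 33.8% of the 32851 stretches of the same length in that table, and GGGCGG in 32.7%. The Cdkn2a stretch holds 2 GC boxes and 1 E2F match, letters found in 1.30% of all stretches. It belongs to the outermost start only. The stretch before the inner Cdkn2a start, chr4:89282193-89282442, matches none of the motifs searched. The Cdkn2b stretch holds 1 CHR match. TTTGAA is found in 16.0% of all stretches. The FoxO core, E-box and TATA letters are not in the 3 printed windows. No motif match printed in capitals overlaps another. Such matches describe the letters only, and no binding was measured here.

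In the Cip/Kip family, Cdkn1b had log2 values of 8.13, 7.88 and 7.81 in CCR2-negative replicates 1 to 3. Its values were 7.61, 7.52 and 7.44 in CCR2-positive replicates 1 to 3. Every CCR2-positive pool was below every CCR2-negative pool, with a gap of 0.21 between the nearest pools. The means were 7.52 ± 0.082 (SD, n = 3) and 7.94 ± 0.17 (SD, n = 3), CCR2-positive first. The difference was -0.42 ± 0.12, with a 95% interval of -0.69 to -0.15. Its unadjusted limma p was 0.00693 and its adjusted p was 0.244. By unadjusted p it ranked 631 of 22180 genes. Of all genes, 6.61% were lower at an unadjusted p under 0.05.

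The highest Cdkn1b value was that of CCR2-negative replicate 1. Without that pool the difference was -0.32 ± 0.12 (unadjusted p = 0.0295, adjusted p = 0.557). Over 15 alternatives, pools left out and other processing included, the difference lay between -0.48 and -0.32. Its unadjusted limma p stayed under 0.05 in all 15, and the adjusted p ranged from 0.206 to 0.557, so it passed in none.

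Cdkn1a, which p53 induces after DNA damage, had values of 6.70, 6.72 and 6.82 in the CCR2-negative pools and of 6.66, 6.77 and 7.10 in the CCR2-positive pools. The groups overlapped, and CCR2-positive replicate 3 was the highest of all 6 pools. The difference was 0.096 ± 0.13, with an interval of -0.20 to 0.40 (adjusted p = 0.796). It turned to -0.031 without CCR2-positive replicate 3.

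Cdkn1c, the imprinted gene of p57, had values of 6.05, 5.82 and 5.98 in the CCR2-negative pools and of 5.73, 5.83 and 6.06 in the CCR2-positive pools. The highest and the lowest pool of all 6 were both CCR2-positive. The difference was -0.074 ± 0.12, and the interval of -0.36 to 0.21 spans levels of 0.78 to 1.16 times that of the CCR2-negative pools. The adjusted limma p was 0.839. Without CCR2-positive replicate 1 the difference was -0.0011, and without CCR2-positive replicate 3 it was -0.17.

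**Figure D1:**
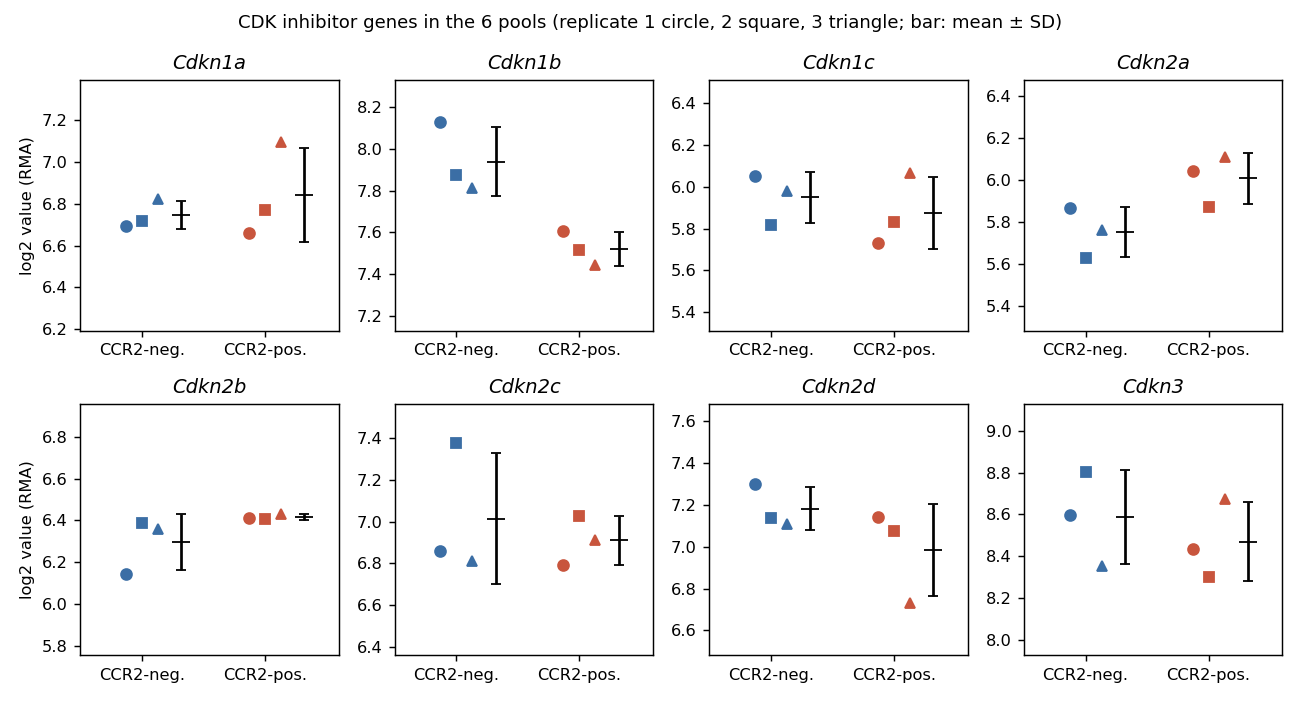
Log2 RMA values (y axis) of the 8 CDK inhibitor genes in the 3 CCR2-negative (blue) and 3 CCR2-positive (red) pools. Circles, squares and triangles are replicates 1, 2 and 3, bars are the mean ± SD, and every panel spans the same number of log2 units. Cdkn1b pools lie at 7.81 to 8.13 and at 7.44 to 7.61 without overlap, while those of Cdkn1a, Cdkn1c, Cdkn2c, Cdkn2d and Cdkn3 overlap.

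In the INK4 family, Cdkn2a had values of 5.87, 5.63 and 5.76 in the CCR2-negative pools and of 6.04, 5.87 and 6.11 in the CCR2-positive pools. Its mean over the 6 pools was 5.88, not far above the median of all probe sets, 5.54. The nearest pools, CCR2-positive replicate 2 and CCR2-negative replicate 1, were 0.0072 apart, so that the lack of overlap rests on a gap far smaller than the SD within either group. The means were 6.01 ± 0.12 (SD, n = 3) and 5.75 ± 0.12 (SD, n = 3), CCR2-positive first. The difference was 0.26 ± 0.11, with an interval of -0.0039 to 0.52. The unadjusted limma p was 0.0528 and the adjusted p was 0.412. Cdkn2a encodes both p16 and Arf, a protein that stabilises p53, from different first exons, and the sources used here do not say which of the transcripts its probe set reads.

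The side of an unadjusted p of 0.05 on which Cdkn2a fell varied with the setting. It was under 0.05 without CCR2-negative replicate 1 (difference 0.31, unadjusted p = 0.0449) and without CCR2-positive replicate 2 (0.32, unadjusted p = 0.0290). It was also under it after a second quantile normalization (0.25, unadjusted p = 0.0406) and with array weights (0.25, unadjusted p = 0.0407). The adjusted limma p lay between 0.316 and 0.671 over the 15 alternatives. Of all genes, 5.63% were higher at an unadjusted p under 0.05.

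Cdkn2b, whose transcription TGF-beta is known to raise, had values of 6.14, 6.39 and 6.36 in the CCR2-negative pools and of 6.41, 6.41 and 6.43 in the CCR2-positive pools. The CCR2-positive pools were nearly equal (SD 0.014, n = 3), and the nearest pools of the groups were 0.019 apart. The difference was 0.12 ± 0.11, with an interval of -0.12 to 0.36 (adjusted p = 0.682). It was 0.042 without CCR2-negative replicate 1, which had the lowest value, and the groups overlapped after median centring and after cyclic loess. Higher values without overlap, as for Cdkn2a and Cdkn2b, were found for 10.8% of all genes, and lower ones, as for Cdkn1b, for 7.88%.

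Cdkn2c, the gene of p18, had values of 6.86, 7.37 and 6.81 in the CCR2-negative pools and of 6.79, 7.02 and 6.91 in the CCR2-positive pools. CCR2-negative replicate 2 stood above the other 5 pools. The difference was -0.10 ± 0.16 with all pools (adjusted p = 0.823) and turned to 0.076 without that pool. Cdkn2c had the largest SE of the 8 genes, and its interval of -0.47 to 0.26 is the widest.

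Cdkn2d, the gene of the INK4 protein p19, had values of 7.30, 7.14 and 7.11 in the CCR2-negative pools and of 7.14, 7.08 and 6.73 in the CCR2-positive pools. CCR2-positive replicate 3 was the lowest, and CCR2-positive replicate 1 lay within the CCR2-negative range. The difference was -0.20 ± 0.13, with an interval of -0.50 to 0.11 (adjusted p = 0.579). It was -0.072 without CCR2-positive replicate 3.

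The phosphatase gene Cdkn3, which is transcribed mainly in dividing cells, had values of 8.60, 8.80 and 8.36 in the CCR2-negative pools and of 8.43, 8.30 and 8.67 in the CCR2-positive pools. The pools were interleaved. The difference was -0.12 ± 0.15, with an interval of -0.45 to 0.22 (adjusted p = 0.779). Without CCR2-negative replicate 2 it was -0.0076.

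**Figure D2:**
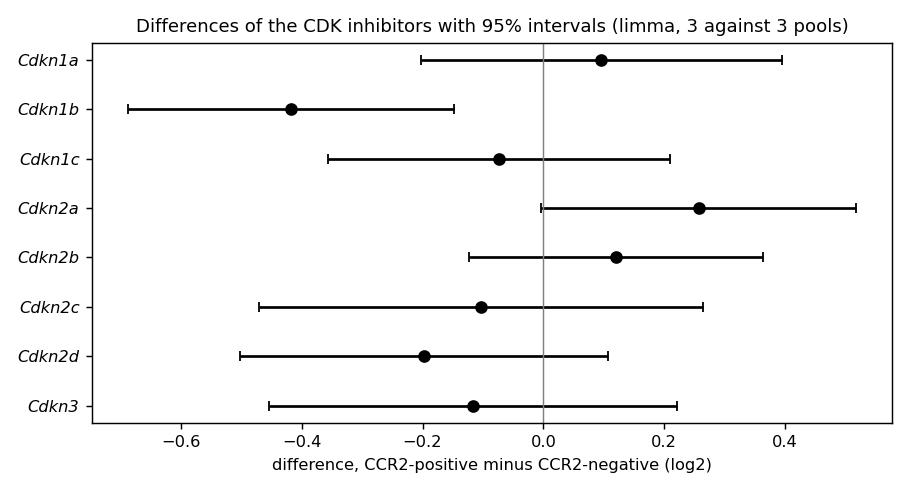
Difference between CCR2-positive and CCR2-negative pools (x axis, log2) for each CDK inhibitor gene (y axis), with the 95% interval of the limma fit on 3 against 3 pools. The interval of Cdkn1b, -0.69 to -0.15, lies below 0, that of Cdkn2a reaches from -0.0039 to 0.52, and those of the other 6 genes hold 0.

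Over the 8 genes the median difference was -0.089, with 5 lower and 3 higher, beside a median of 0.027 over all genes, of which 12422 were higher and 9758 lower. The median of the family was 0.034 without CCR2-negative replicate 2. The members shared no direction. Within each array, the value of Cdkn1b minus that of Cdkn1a ran from 0.99 to 1.43 in the CCR2-negative pools and from 0.35 to 0.95 in the CCR2-positive pools. Cdkn1b minus Cdkn2a likewise did not overlap, at 2.05 to 2.26 and 1.33 to 1.64, nor did Cdkn1b minus Cdkn2b, at 1.45 to 1.99 and 1.01 to 1.20. For Cdkn2a and Cdkn2b this could not be otherwise, since their pools and those of Cdkn1b lay apart in opposite directions. Against Cdkn1c, Cdkn2c, Cdkn2d and Cdkn3 the differences within arrays overlapped between the groups. Cdkn1b was singled out for these differences after its values were seen, so they are a description and were not tested.

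**Figure D3:**
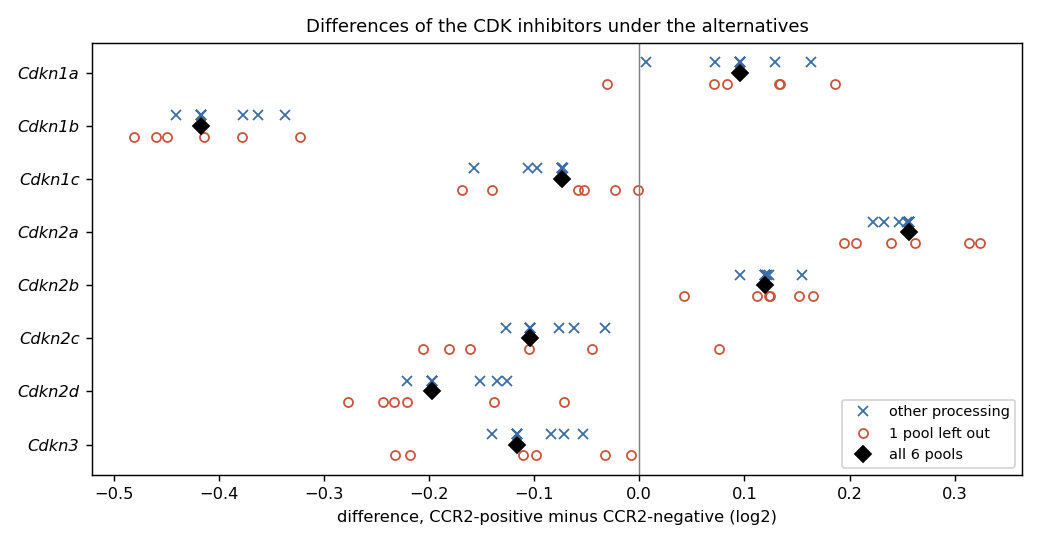
Difference (x axis, log2) of each CDK inhibitor gene (y axis) with all 6 pools (black diamonds), with 1 pool left out (red circles) and under other processing (blue crosses). The values of Cdkn1b stay between -0.48 and -0.32 and those of Cdkn2a between 0.19 and 0.32, while Cdkn1a and Cdkn2c each lie on both sides of 0.

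The purity of the sort and the kinds of cells in the pools bear on these values. Ccr2 itself had means of 6.70 ± 0.47 and 5.91 ± 0.32 (SD, n = 3 each), CCR2-positive first (difference 0.79 ± 0.24, adjusted p = 0.274), and its pools overlapped. Of the defining stem cell genes, Kit, the receptor of stem cell factor, had means of 9.73 and 10.05, and Procr, a surface receptor of stem cells, of 7.02 and 7.40, CCR2-positive first. Their adjusted limma p values were 0.365 and 0.304. Gfi1b, of the same list, went the other way, with means of 10.16 and 9.84 in that order. Of 20 measured stem cell identity genes, 18 were lower in the CCR2-positive pools (median -0.36), and of 16 erythroid genes 15 were higher (median 0.58). Monocyte and macrophage genes were higher in 15 of 18 cases (median 0.17), neutrophil genes in 16 of 20 (0.21) and lymphoid genes in 10 of 13 (0.13). Dimmer than the median probe set were 10 of the lymphoid, 7 of the monocyte and macrophage and 9 of the neutrophil genes. The median of the other 3 lymphoid genes was -0.24. Of 10 megakaryocyte and platelet genes 5 were higher and 5 lower (median -0.021, and 0.057 after a second quantile normalization). Without CCR2-positive replicate 2 the neutrophil median was 0.099. Detection calls were not used here, so whether a marker is absent cannot be read from these values. In pools of cells, fewer cells of a type and less RNA per cell cannot be told apart.

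Cdkn1b and the stem cell list were both lower in the CCR2-positive pools. From its mean over the 6 pools Cdkn1b lay at 0.40, 0.15 and 0.083 in CCR2-negative replicates 1 to 3, and the stem cell identity list at 0.37, 0.098 and 0.089. In CCR2-positive replicates 1 to 3 Cdkn1b lay at -0.12, -0.22 and -0.29, and the list at -0.12, -0.39 and -0.050. The erythroid list ran the other way, from -0.57 in CCR2-negative replicate 1 to 0.52 in CCR2-positive replicate 2. The order of the CCR2-positive pools differed: Cdkn1b was lowest in replicate 3, while the stem cell mean was lowest and the erythroid mean highest in replicate 2. The mean level of the stem cell list ran from 7.31 to 7.64 in CCR2-positive and from 7.78 to 8.06 in CCR2-negative pools, and that of the erythroid list from 8.28 to 8.74 and from 7.65 to 8.11. The part of these cell types in the Cdkn1b difference was not tested.

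**Figure D4:**
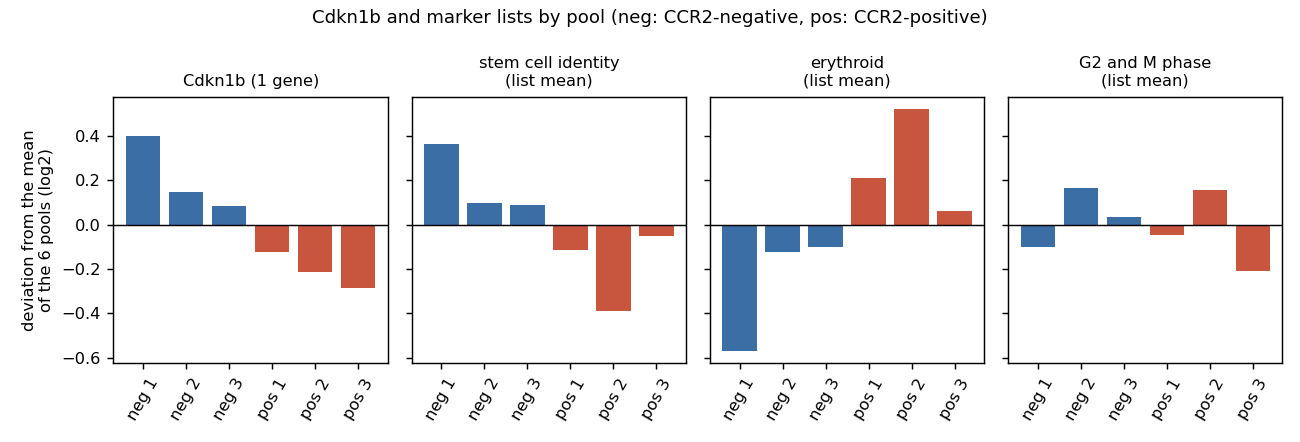
Deviation from the mean of the 6 pools (y axis, log2) of Cdkn1b and of the mean of 3 gene lists in each pool (x axis; blue CCR2-negative, red CCR2-positive). Cdkn1b and the stem cell list are above 0 in the CCR2-negative and below 0 in the CCR2-positive pools, the erythroid list is the reverse, and the G2 and M phase list has both signs within each group.

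The genes whose pattern over the 6 arrays was most like that of the 3 inhibitors with the highest mean values were sought among 10152 named genes at or above the median level. For Cdkn1b they were Rai14 (Pearson r = 0.999), Odf3b (0.998) and Entpd5 (0.998), with differences of -0.38, -0.62 and -0.65. For Cdkn3 they were Atp5e (r = 0.993), Rpp25l (0.992) and Sdhaf4 (0.982), and for Cdkn2d Yrdc (0.992), Mtmr3 (0.991) and Mc5r (0.990). Of the 10152 genes, 81 had r above 0.95 with Cdkn1b, 16 with Cdkn3 and 75 with Cdkn2d. With 6 arrays, a high r was thus not particular to the genes named. All points share the same arrays and the same 2 groups.

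The inhibitors bind cyclins and CDKs, of which 14 were measured, 9 lower and 5 higher (median -0.065). The median turned to 0.027 without CCR2-negative replicate 2. In each direction 1 of them reached an unadjusted p under 0.05, beside the 12.2% of all genes in both directions. Ccne1, which encodes the cyclin E1 that p27 and p21 hold in check with Cdk2, had values of 7.27, 7.50 and 7.42 in the CCR2-negative and of 7.70, 7.98 and 7.89 in the CCR2-positive pools. These did not overlap, and the difference was 0.46 ± 0.12 (adjusted p = 0.221). Ccnh, the cyclin of the kinase that activates CDKs, differed by -0.34 ± 0.11 (adjusted p = 0.282), and its partner Mnat1 by -0.35 ± 0.17, or -0.20 without CCR2-positive replicate 3. Cdk4 and Cdk6, the targets of INK4 proteins, differed by 0.095 and 0.031, Cdk2 by -0.052 and Cdk1 by -0.078. Ccnd1, Ccnd2 and Ccnd3, the D cyclins, differed by -0.13, -0.20 and -0.015. The values of these named CDKs and D cyclins were picked for their role and not for their size.

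Downstream of the kinases lie the pocket proteins and E2F factors, with 13 measured genes (median 0.0091, and -0.014 with median centring). For Rb1, the retinoblastoma protein gene, the brighter probe set gave 0.59 ± 0.17 (adjusted p = 0.259) and the dimmer one -1.10. The probe sets disagree, so no direction can be given for Rb1, which reached an unadjusted p under 0.05. Of the other 12 genes 6 were higher and 6 lower, and 1, E2f4, reached that p, beside 12.2% of all genes. An E2F of resting cells, E2f4 differed by 0.36 ± 0.14 (adjusted p = 0.346). Rbl2, the pocket protein p130, differed by -0.32 ± 0.15 (adjusted p = 0.443), and by -0.15 without CCR2-positive replicate 3.

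p27 and p21 are removed from the cell mainly by ubiquitin ligases. Of 14 measured genes of this machinery 7 were higher and 7 lower (median 0.0028, and -0.021 with median centring). Under an unadjusted p of 0.05 were 3 (21.4%), all higher, beside 12.2% of all genes. Skp2, the ligase subunit that recognises p27, had values of 7.36, 7.52 and 7.36 in the CCR2-negative and of 7.65, 7.85 and 7.77 in the CCR2-positive pools. The groups did not overlap, and the difference was 0.35 ± 0.11 (adjusted p = 0.275). Over the 15 alternatives the difference of Skp2 lay between 0.30 and 0.42. Uhmk1, a kinase that phosphorylates p27, differed by 0.29 ± 0.11 (adjusted p = 0.338), and Cul4a, the scaffold of a ligase that acts on p21 and p27, by 0.42 ± 0.18 (adjusted p = 0.405), or 0.27 without CCR2-positive replicate 2. Cks1b, the cofactor of Skp2, lay in the other direction at -0.22 ± 0.12, and Skp1, which joins Skp2 to the ligase, at -0.18 ± 0.096. A second, dimmer probe set of Skp1 gave 0.12. Protein levels were not measured.

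FoxO factors, which transcribe Cdkn1b and are shut out of the nucleus by Akt, were part of a list of 12 measured genes. Of these 8 were lower and 4 higher (median -0.063), and 5 were under an unadjusted p of 0.05 (41.7%, beside 12.2% of all genes). Those 5 were 3 lower and 2 higher genes. In the stem cell and erythroid lists the shares were 50% and 62.5%. Foxo3, the main FoxO factor of stem cells, had values of 6.69, 6.48 and 6.73 in the CCR2-negative and of 6.31, 6.40 and 6.33 in the CCR2-positive pools. The groups did not overlap, and the difference was -0.28 ± 0.11 (adjusted p = 0.350). Akt1 differed by -0.30 ± 0.12 and Pik3cd, a subunit of the kinase PI3K, by -0.64 ± 0.27. The Pik3cd pools overlapped, at 7.10, 6.78 and 6.95 in CCR2-negative replicates 1 to 3 and 6.25, 6.94 and 5.72 in CCR2-positive ones. Foxo6, at 0.37 ± 0.13, and Pik3cb, at 0.29 ± 0.11, were the other two under that p. None of the 12 passed over all genes, and the genes of the list did not share a direction.

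Cdkn1a is a target of p53, and 19 other genes of that pathway were measured, most of them targets too. Of these 8 were higher and 11 lower (median -0.040), and 7 were dimmer than the median probe set, Sesn2 among them. The sestrin genes, which limit growth signals under stress, lay in opposite directions. Sesn1 differed by -0.60 ± 0.12 (adjusted p = 0.177) and Sesn2 by 0.37 ± 0.10 (adjusted p = 0.243). Mdm2, the ligase of p53, differed by -0.22 ± 0.14, and by -0.11 without CCR2-positive replicate 3. Trp53inp1, another target, differed by -0.34 ± 0.20, and by -0.16 without CCR2-negative replicate 1.

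Of 17 measured Polycomb genes, which include the repressors of the Cdkn2a and Cdkn2b locus, 11 were lower and 6 higher (median -0.073). An unadjusted p under 0.05 was reached by 2 of them (11.8%), beside 12.2% of all genes. Both were lower and both belong to the complex that holds Bmi1. Phc1 had values of 7.49, 7.14 and 7.09 in the CCR2-negative and of 6.43, 6.74 and 6.70 in the CCR2-positive pools, a difference of -0.61 ± 0.14 (adjusted p = 0.187). Rnf2, the ligase of that complex, had 8.12, 8.17 and 7.86 against 7.70, 7.69 and 7.25, a difference of -0.51 ± 0.15 (adjusted p = 0.265). Neither had overlapping pools. The pools lay apart for 4 of the 17 genes, Eed among them and all lower, beside 18.6% of all genes in both directions. Eed, of the complex that methylates histone H3, differed by -0.29 ± 0.13 (-0.17 without CCR2-positive replicate 3), and Bmi1 itself by -0.18 ± 0.12. After a second quantile normalization the median of the list was -0.013.

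Among genes of TGF-beta signalling, Myc and Miz1, which act on Cdkn2b and Cdkn1a, 10 of 16 were lower and 6 higher (median -0.13). Acvr1b, an activin receptor, differed by -0.46 ± 0.13 (adjusted p = 0.251) as the single gene of the list under an unadjusted p of 0.05. That is 6.25% of the list, beside 12.2% of all genes. Tgfbr2, a receptor of TGF-beta, differed by -0.27 ± 0.12, and Smad3 by -0.27 ± 0.14, which was -0.13 without CCR2-negative replicate 1. Mycn, also in the stem cell list, differed by -0.53 ± 0.24, and by -0.27 without CCR2-positive replicate 2.

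Cdkn1c lies in an imprinted cluster of genes, of which 14 others were measured, 9 higher and 5 lower (median 0.037). Of the 14, 7 were dimmer than the median probe set, Phlda2 and Igf2 among them. Slc22a18, a transporter gene next to Cdkn1c among coding genes, had values of 7.24, 7.02 and 6.94 in the CCR2-negative and of 6.61, 6.91 and 6.43 in the CCR2-positive pools. CCR2-positive replicate 2 came nearest to the CCR2-negative range without entering it, and the difference was -0.42 ± 0.15 (adjusted p = 0.322). Phlda2, another gene of the cluster expressed from the maternal copy, differed by -0.15 ± 0.17, and Igf2 by 0.15 ± 0.15. Cdkn1c itself differed by -0.074 ± 0.12.

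Genes of dividing cells did not run in a single direction. Of 33 S phase genes 18 were higher and 15 lower (median 0.020), and of 35 G2 and M phase genes 13 were higher and 22 lower (median -0.065). An unadjusted limma p under 0.05 was reached by 2 of the 33 (6.06%) and 2 of the 35 (5.71%), beside 12.2% of all genes. Cdc6, which loads the replication helicase, differed by 0.60 ± 0.20 while Rrm2, which supplies deoxynucleotides, differed by 0.39 ± 0.12. Ndc80, of the kinetochore, differed by -0.63 ± 0.26 and Ckap2, a spindle protein gene, by -0.39 ± 0.14. The smallest adjusted p among these 4 was 0.274. Tyms, of the S phase list, lay in the other direction at -0.20 ± 0.098. So did Tacc3, of the G2 and M phase list, at 0.24 ± 0.11. Without CCR2-positive replicate 2 the difference of Cdc6 was 0.37, and without CCR2-negative replicate 2 those of Ndc80 and Ckap2 were -0.37 and -0.24. The S phase median turned to -0.083 without CCR2-positive replicate 2 and to -0.0037 with median centring. That of G2 and M phase turned to 0.023 without CCR2-positive replicate 3 and to 0.0012 after a second quantile normalization.

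**Figure D5:**
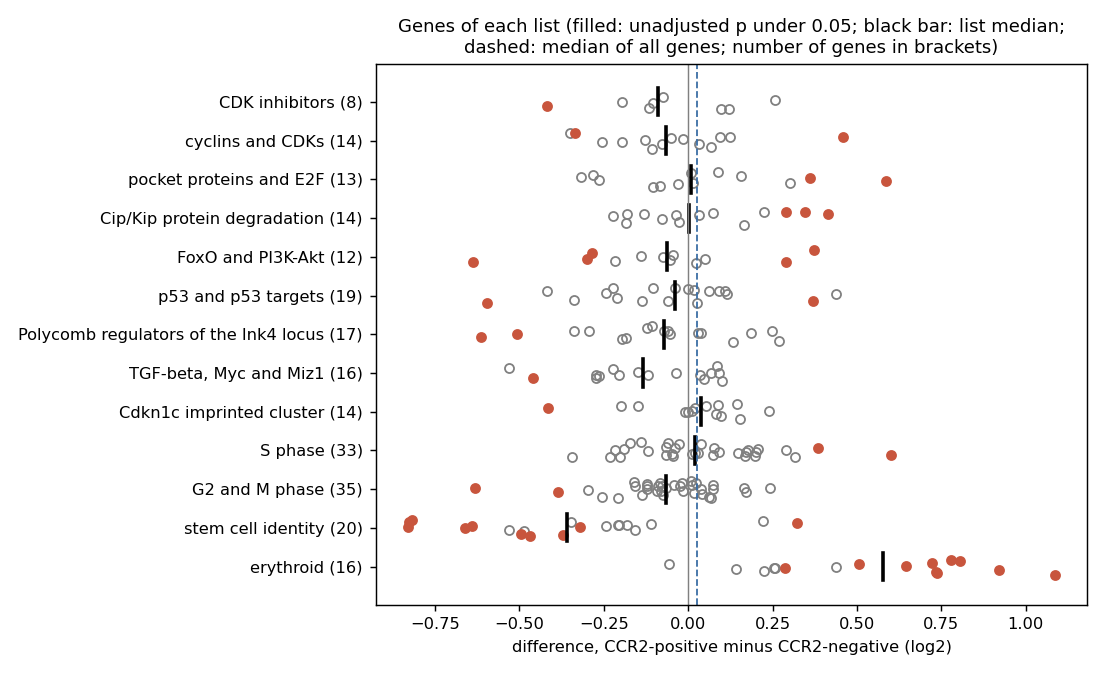
Difference (x axis, log2) of each measured gene, by list (y axis, number of genes in brackets). Filled points are genes at an unadjusted limma p under 0.05, black bars are list medians and the dashed line is the median of all genes, 0.027. The CDK inhibitors and the lists of their partners and regulators have medians between -0.13 and 0.037, while the stem cell list lies at -0.36 and the erythroid list at 0.58.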

How the data were processed

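The authors deposited 1 table of log2 values for 41345 probe sets on 6 arrays. Per the submitters' processing notes these are RMA values, and the sources used here give neither version nor genome build. Per the labels' protocols, 5 ng of total RNA per pool was amplified before labelling. RMA equalises arrays, so a change is relative to the other genes. The number of arrays limits the precision, with a median SE of 0.127 for a log2 difference.

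Gene names came from the platform annotation. Of the probe sets, 23521 had 1 gene and 1814 had several, which were left unnamed. The probe set with the highest mean stood for a gene. The groups were compared with limma 3.58.1 in R 4.3.3 (lmFit, eBayes, no covariate), with Benjamini-Hochberg adjustment over 22180 genes and a threshold of 0.05. The fit was tested on simulated data with planted differences larger than those of the 8 genes, so the test does not bear on differences of their size. The design text calls the pools biological replicates. The labels give no batch. The 8 genes and the 16 lists beside them were chosen with earlier results of these data known. Named genes are the 8, Ccr2, up to 4 per list by the smallest unadjusted p, the genes most alike over arrays, and some marker genes and genes of known role that were picked after values were seen. Listed genes with no probe set to themselves were not analysed here, and 1 was matched under a newer symbol. Alternatives were 3 normalizations, 2 filters on dim probe sets, the replicate number as a block, other variance settings, array weights, the mean of probe sets and each pool left out.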

Additional observations from a re-analysis of the deposited data

How the results depend on the processing

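Of the 8 CDK inhibitors, 6 kept their direction under all 15 alternatives and none passed an adjusted p of 0.05 in any. The 2 filters, the replicate block, the other variance settings and the mean of probe sets left every difference of the 8 unchanged. With 1 probe set per gene and groups of equal size they could not do otherwise. Among the 6, Cdkn1c came as near to 0 as -0.0011 and Cdkn3 as -0.0076 with 1 pool left out. With 1 pool left out, Cdkn1a ranged from -0.031 to 0.19 and Cdkn2c from -0.21 to 0.076, each reversed by 1 pool (CCR2-positive replicate 3 and CCR2-negative replicate 2). The number of CDK inhibitors at an unadjusted p under 0.05 was 1, and 2 after a second quantile normalization or with array weights, and 1 to 2 with 1 pool left out, Cdkn2a being the second. The number of genes past the adjusted threshold was 0 to 2 with 1 pool left out: without CCR2-positive replicate 1, Gca (adjusted p = 0.0290) and Mcpt8 (0.0222) passed, named after their values were seen. The 2716 genes at an unadjusted p under 0.05 became 1704 when probe sets dimmer than the median were left out, where 12395 genes were tested. Of the genes under it, 46.0% were higher, 54.4% after a second quantile normalization, 38.8% with median centring and 30.7% with those dim probe sets left out. Rb1 turned to -0.26 with the mean of its probe sets. With 1 pool left out Igf2 ranged from -0.0014 to 0.24, Rpp25l from -0.21 to 0.035 and Sdhaf4 from -0.36 to 0.058. Whether pools of equal replicate number belong together cannot be settled from the values. Their deviations from the group means correlated at 0.035, 0.089 and 0.045 across genes. Those of unequal number correlated at -0.10 to 0.068, and not every pool correlated best with its own number. With the replicate number as a block 2935 genes had an unadjusted p under 0.05, 0 passed the adjusted threshold, and Cdkn1b differed by -0.42 ± 0.11 (adjusted p = 0.224), so the block changed no call. Signal over background is unknown.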
